A study of Mus musculus with 24 samples.

Results

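The glucocorticoid receptor gene *Nr3c1*, 6 genes that respond to glucocorticoids (*Fkbp5*, *Tsc22d3*, *Sgk1*, *Tat*, *Dusp1* and *Zbtb16*) and the metallothioneins *Mt1* and *Mt2* were followed in mouse liver by circadian time and genotype. They were selected by gene symbol, and all 9 of 9 were found among the 54733 genes listed for every library. Poly(A)-tailed RNA of male C57BL/6 mice was sequenced in 24 liver libraries. Wild type (WT) and ΔRRE mice were each sampled every 4 h from CT2 to CT22 (CT, circadian time in hours). Every combination had a pair of libraries, 12 libraries of either genotype. By the study's methods, tissue for RNA was taken in constant darkness, CT is projected, and the mice spanned a range of ages. The ΔRRE mice were homozygous for a deletion of the RREs, the binding elements of RORs and REV-ERBs, near the start of *Bmal1*; by default the study used 1 founder-derived line. The labels name no drug or hormone for either genotype, and blood hormone levels were not analysed here. The labels name livers but do not state that each library is 1 mouse, so p-values measure the spread between libraries.

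Glucocorticoids such as corticosterone are steroid hormones of the adrenal gland that reach every organ through the blood, with a daily rise shortly before the active phase of the animal, which is the night in mice. Bound to hormone, the receptor moves to the nucleus and acts on genes with glucocorticoid response elements. In liver, its targets include enzymes of amino acid breakdown and glucose production, its own inhibitors, and genes that dampen inflammation. Metallothioneins are small cysteine-rich proteins that bind zinc and copper. They respond to glucocorticoids, and also to metal through the factor MTF1 and to inflammatory and fasting signals.

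Values are FPKM, fragments scaled by transcript length and by mapped fragments, so levels can be set side by side between genes. The number of reads behind each value is unknown, and no counting error is given. Per library, the values summed to between 554170 and 624746 FPKM. The statistical scale is log2(FPKM + 0.1), on which fold changes of low genes are understated. All 9 genes were among the 11244 tested, the genes whose mean over the libraries reached 1 FPKM. In whole liver, fewer cells of a type and less RNA per cell cannot be told apart.

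The libraries were first compared with their labels. Hepatocyte markers summed to between 36593 and 55415 FPKM, led by *Alb* with a mean of 27420.2 FPKM, while 8 Kupffer cell markers summed to at most 121 FPKM. *Arntl* (*Bmal1*), the gene edited in the mutant, had a 24 h wave with an amplitude of 2.57 (log2) in WT and 0.29 in ΔRRE. The difference between the waves had an adjusted p of 0.0463 (limma, Benjamini-Hochberg). It was the only gene that passed this test, 0.00889% of the genes tested.

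After the data were seen, 3 libraries were set apart because they had the highest acute-phase sums. These were ΔRRE CT10 replicates 1 and 2 and ΔRRE CT14 replicate 1. The 21 acute-phase genes, which hepatocytes switch on in inflammation and injury, summed to 24001, 19171 and 26314 FPKM in them, against 7959 to 16333 FPKM in the other 21 libraries. Their most abundant gene, the heme carrier *Hpx*, was at 5922, 3861 and 6215 FPKM there. Among them, 2 also had the highest sums of 10 blood cell markers, 4326 FPKM in ΔRRE CT10 replicate 1 and 4464 FPKM in ΔRRE CT14 replicate 1, against 467 to 2063 FPKM in the others. The blood sum was led by *Hbb-bs*, a globin gene, and up to 3 of the 10 markers were at 0 in a library. ΔRRE CT10 thus consists of libraries with high acute-phase sums, and at that time point genotype and acute-phase level cannot be told apart.

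In the order of their mean FPKM over 24 libraries, the genes were *Tat* (611), *Mt1* (222), *Mt2* (75.1), *Tsc22d3* (41.4), *Nr3c1* (14.5), *Fkbp5* (11.1), *Dusp1* (8.81), *Sgk1* (5.66) and *Zbtb16* (4.01). Neighbours in this order overlapped over the libraries: *Mt1* ranged from 7.72 to 1536 FPKM and *Mt2* from 0.274 to 695 FPKM. *Mt1* was above *Mt2* in 24 of 24 libraries, by a median of 4.59-fold. On GRCm38, *Fkbp5* (28399094 to 28517527) and *Dusp1* (26505590 to 26562128) lie on the reverse strand of chromosome 17, *Tsc22d3* (140539528 to 140600659) on that of chromosome X and *Zbtb16* (48654297 to 48836222) on that of chromosome 9. *Sgk1* (21882184 to 21999903) lies on the forward strand of chromosome 10 and *Tat* (109990437 to 109999803) on that of chromosome 8.

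**Figure D1:**
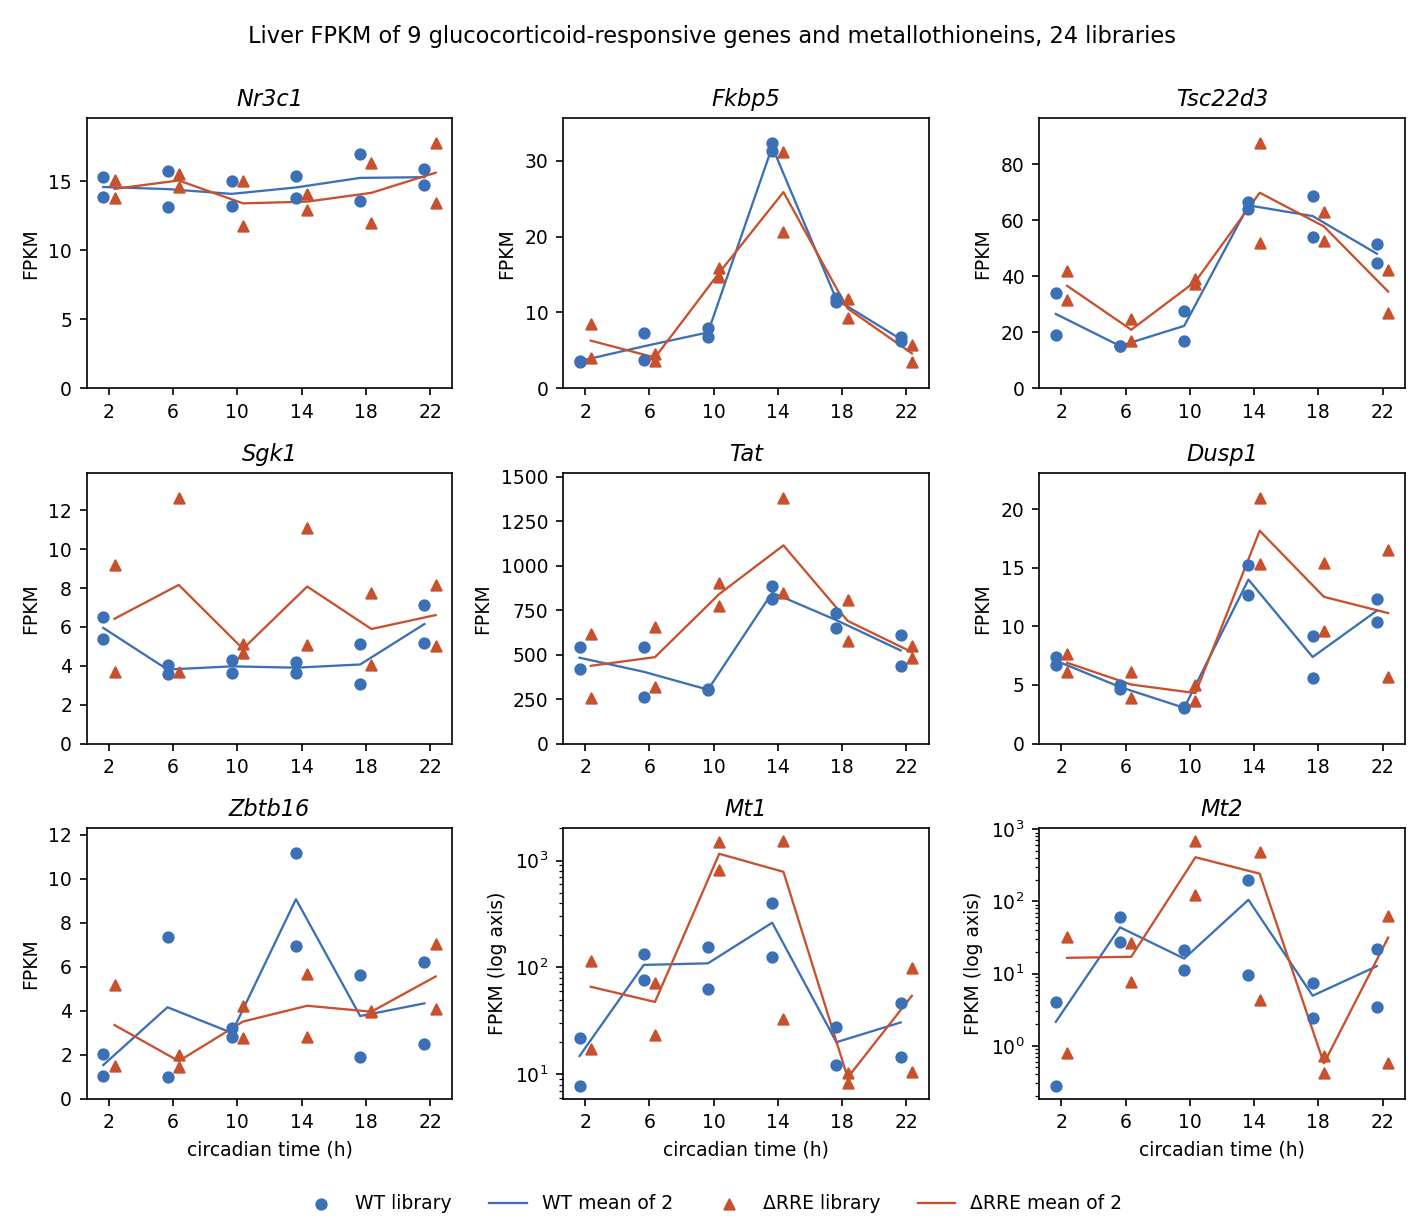
FPKM of the 9 genes (vertical axes, logarithmic for Mt1 and Mt2) against circadian time in hours, with circles for WT libraries, triangles for ΔRRE libraries and lines through the means of 2. Nr3c1 stays between 11.8 and 17.8 FPKM, Fkbp5 and Tsc22d3 are high around CT14, and the 2 triangles at CT10 lie above both circles for 7 of the 9 genes.

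*Nr3c1* encodes the receptor that carries the hormone signal to its target genes. Its FPKM in WT (replicates 1 and 2) were 13.8 and 15.3 at CT2, 15.7 and 13.1 at CT6, 15.0 and 13.2 at CT10, 13.8 and 15.3 at CT14, 13.6 and 16.9 at CT18, and 14.7 and 15.9 at CT22. In ΔRRE they were 15.1 and 13.8, 14.6 and 15.5, 11.8 and 15.1, 14.1 and 12.9, 12 and 16.4, and 13.4 and 17.8 at the same times. The genotypes overlapped at all 6 time points. Neither genotype had a wave past the threshold (joint adjusted p = 0.742, limma), and the mean difference of -0.04 (log2) had a 95% interval from -0.18 to 0.10.

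*Fkbp5* encodes an immunophilin that binds the receptor complex and lowers its affinity for hormone, and its mRNA is among the most sensitive readouts of receptor activity. In WT its FPKM were 3.54 and 3.67 at CT2, 7.30 and 3.79 at CT6, 6.81 and 7.95 at CT10, 32.4 and 31.3 at CT14, 12 and 11.4 at CT18, and 6.27 and 6.73 at CT22. In ΔRRE they were 8.54 and 4.03, 4.57 and 3.56, 15.8 and 14.6, 31.1 and 20.6, 9.33 and 11.7, and 3.54 and 5.68. Both genotypes were highest at CT14, and at CT10 both ΔRRE libraries exceeded both WT libraries. The fitted peak was at CT14.8 in WT and CT13.6 in ΔRRE, and the mean at the highest time point was 8.83-fold and 6.36-fold that at the lowest.

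*Tsc22d3* encodes GILZ, a leucine zipper protein that carries part of the anti-inflammatory action of glucocorticoids. Its WT values were 19.0 and 34.1 at CT2, 15.2 and 15.1 at CT6, 16.9 and 27.7 at CT10, 64.1 and 66.5 at CT14, 54.2 and 68.8 at CT18, and 51.5 and 44.6 at CT22. The ΔRRE values were 31.4 and 41.8, 17.0 and 24.9, 37.2 and 39.1, 51.9 and 87.6, 63.0 and 52.6, and 42.3 and 26.8. High values lasted from CT14 to CT18 in both genotypes, with low values at CT6, and the genotypes overlapped at CT2, CT14 and CT18. The wave peaked at CT17.8 in WT and CT16.2 in ΔRRE, with amplitudes of 1.09 and 0.69 (log2), and the difference between the waves did not pass the threshold (unadjusted p = 0.0604, adjusted p = 0.9999, limma).

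*Tat*, tyrosine aminotransferase, is a classical hormone-induced enzyme of liver that breaks down tyrosine. In WT it was at 420.2 and 544 FPKM at CT2, 543 and 263 at CT6, 300.5 and 305 at CT10, 812 and 883 at CT14, 736 and 649.9 at CT18, and 612 and 434 at CT22. In ΔRRE it was at 257 and 616, 316 and 654, 904 and 775, 1381 and 846, 804 and 574, and 481 and 546 FPKM. The lowest time point of WT, CT10, was among the high ones of ΔRRE, and at the other 5 time points the genotypes overlapped. The fitted peaks were at CT17.9 in WT and CT13.8 in ΔRRE. The difference between the waves had an unadjusted p of 0.0467, under the limit of 0.05 that 2.84% of all genes tested passed, and an adjusted p of 0.9999 (limma).

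*Dusp1* encodes a phosphatase that switches off MAP kinases. WT values were 6.75 and 7.41 at CT2, 4.66 and 5.0 at CT6, 3.08 and 3.01 at CT10, 15.3 and 12.7 at CT14, 9.15 and 5.63 at CT18, and 10.4 and 12.3 at CT22. ΔRRE values were 6.14 and 7.66, 3.93 and 6.14, 3.61 and 5.0, 15.4 and 21, 15.4 and 9.64, and 16.6 and 5.72. Both genotypes were lowest at CT10 and highest at CT14. In ΔRRE the replicates at CT22 lay further apart than those of WT.

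*Sgk1* encodes a kinase that regulates ion transport and is induced by glucocorticoids and mineralocorticoids. In WT it was at 6.49 and 5.40 FPKM at CT2, 4.04 and 3.58 at CT6, 4.31 and 3.64 at CT10, 3.62 and 4.18 at CT14, 3.04 and 5.09 at CT18, and 7.14 and 5.15 at CT22. In ΔRRE it was at 3.67 and 9.17, 3.68 and 12.6, 5.10 and 4.64, 11.1 and 5.05, 7.73 and 4.05, and 8.17 and 5.04 FPKM. WT stayed within a narrow band at CT6, CT10 and CT14, whereas single ΔRRE libraries reached the highest values. *Sgk1* had the only mean difference between genotypes with an unadjusted p under 0.05, higher in ΔRRE by 0.43 ± 0.20 (log2, SE; unadjusted p = 0.0434, adjusted p = 0.541, limma). Among all genes tested, 8.91% differed at that level and 7.16% were higher in ΔRRE.

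*Zbtb16* encodes PLZF, a zinc finger factor induced by glucocorticoids in many cell types. In WT it was at 1.04 and 2.02 FPKM at CT2, 7.33 and 0.98 at CT6, 3.20 and 2.78 at CT10, 6.96 and 11.2 at CT14, 5.61 and 1.90 at CT18, and 2.47 and 6.20 at CT22. In ΔRRE it was at 5.19 and 1.5, 1.98 and 1.44, 4.23 and 2.77, 5.65 and 2.80, 3.97 and 3.93, and 7.03 and 4.08 FPKM. Replicates of WT at CT6 differed 7.48-fold, the largest gap of this gene. The genotypes overlapped at every time point but CT14, where both ΔRRE libraries were below both WT libraries. The joint test of the waves did not pass the threshold (adjusted p = 0.170, limma).

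*Mt1* and *Mt2* lie in the same orientation on chromosome 8 (GRCm38), *Mt2* from 94172664 to 94173568 and *Mt1* from 94179082 to 94180327, with 5514 bp between them. Promoter windows of 300 bases, from 250 before to 50 after the start, were read from RefSeq (GRCm38.p6). They hold letters of the metal response element, TGCACNC or TGCGCNC on either strand, 3 times in *Mt1* and 4 times in *Mt2*, and of all 32544 windows 25.9% hold at least 1 such match, 1.99% at least 3 and 0.522% at least 4. The *Mt1* window also holds the palindrome of the glucocorticoid response element, half-sites GNACA and TGTNC with 3 bases between them, which occurs in 0.476% of the windows. Most of these matches are shown here on the forward strand, with the matching letters in capitals; the last one is read on the opposite strand. Positions count bases from the RefSeq start, which can differ from the ends given above, and no matches overlapped:
Mt1 glucocorticoid element at -94, chr8:94178987-94179015: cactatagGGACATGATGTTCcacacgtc
Mt1 metal element at -23, chr8:94179058-94179080: tcccgctgTGCACACtggcgctc
Mt1 metal element at 2, chr8:94179083-94179105: gggagctcTGCACTCcgcccgaa
Mt2 metal element at -223, chr8:94172387-94172409: atcgcctcTGCACCCggcccctc
Mt2 metal element at -128, chr8:94172482-94172504: agacccttTGCGCTCagctcctt
Mt2 metal element at -50, chr8:94172560-94172582: gggagggcGTGTGCAggctctgt

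*Mt1* FPKM in WT were 21.9 and 7.72 at CT2, 135 and 76.4 at CT6, 63.2 and 155 at CT10, 125 and 399.8 at CT14, 27.8 and 12.2 at CT18, and 46.7 and 14.4 at CT22. In ΔRRE they were 115 and 17.3, 71.7 and 23.4, 1488 and 824, 1536 and 32.9, 10.4 and 8.24, and 98.1 and 10.5. The 3 ΔRRE libraries with high acute-phase sums were the 3 highest of all 24, followed by WT CT14 replicate 2 with an acute-phase sum of 11072 FPKM, within the range of the other libraries. ΔRRE CT14 replicate 2, with an acute-phase sum of 8673 FPKM, had the lower value of its pair, a 46.7-fold gap. The part of acute-phase and blood transcripts in these values was not tested.

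*Mt2* FPKM in WT were 4.01 and 0.274 at CT2, 60.1 and 27.4 at CT6, 11.2 and 21 at CT10, 9.69 and 200.7 at CT14, 7.42 and 2.46 at CT18, and 21.9 and 3.41 at CT22. In ΔRRE they were 32.3 and 0.785, 26.6 and 7.62, 695 and 123, 479.8 and 4.32, 0.719 and 0.421, and 62.4 and 0.586. The 4 highest libraries were those of *Mt1* in another order, with ΔRRE CT10 replicate 1 first and WT CT14 replicate 2 above ΔRRE CT10 replicate 2. Both genes were lowest in ΔRRE at CT18 by group mean, and in WT at CT2. *Gm45774*, annotated on the opposite strand, overlaps *Mt2* by 749 bp. The libraries were directional, but whether strand was used in quantification is not given in the sources used here, so reads of these 2 genes may not be separable.

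**Figure D2:**
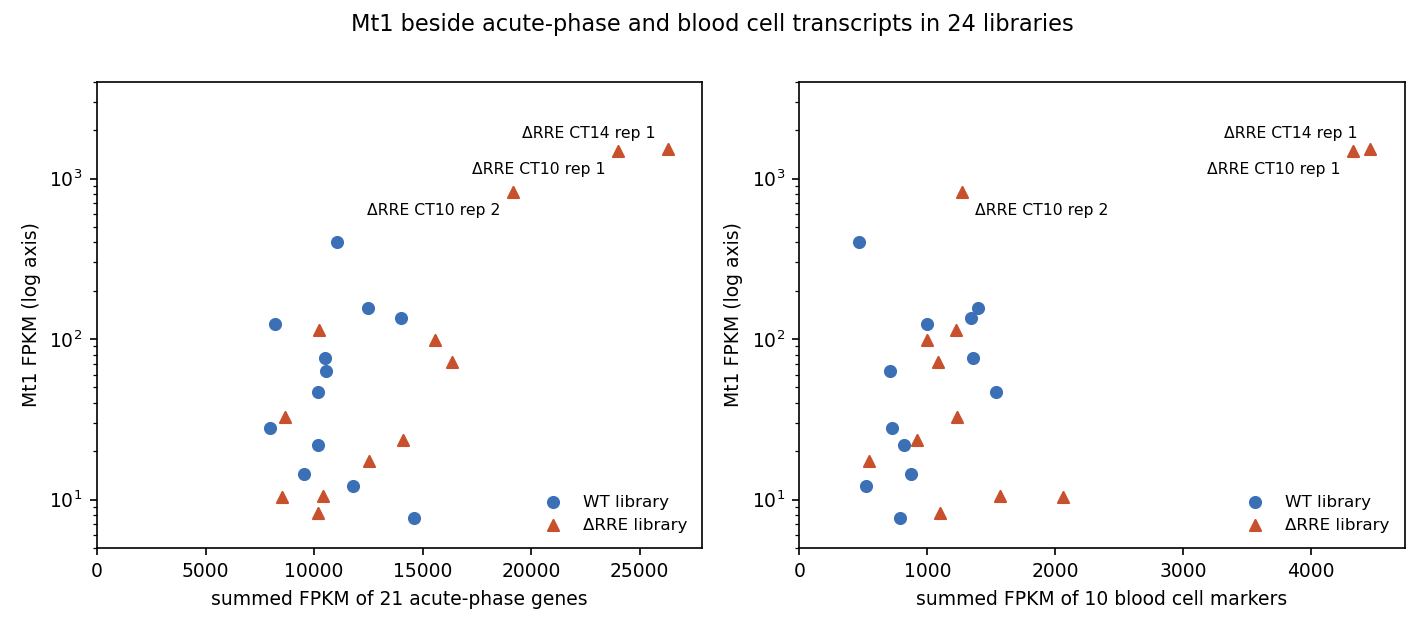
Mt1 FPKM (logarithmic vertical axis) against the summed FPKM of 21 acute-phase genes (left) and of 10 blood cell markers (right), 1 point per library, circles for WT and triangles for ΔRRE. The 3 named ΔRRE libraries hold the highest Mt1 values and the highest acute-phase sums, and 2 of them also the highest blood sums.

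Which genes varied with time of day was asked first within each genotype, by fitting a cosine and a sine of 24 h. By the study's 3 criteria, with this fit's unadjusted p under 0.3 in place of its own program, 8 of 9 genes were rhythmic in WT, all but *Nr3c1*, and 7 in ΔRRE, all but *Nr3c1* and *Sgk1*. These criteria called 37% of all genes tested in WT and 35.4% in ΔRRE. At an adjusted p under 0.05, 3 of 9 were rhythmic in WT (*Fkbp5*, *Tsc22d3* and *Mt1*, against 10.3% of all genes) and 2 in ΔRRE (*Fkbp5* and *Tsc22d3*, against 4.57%). In WT, the call for *Mt1* (adjusted p = 0.0356, limma) was lost without each of 8 of the 12 WT libraries (both of CT2 and of CT14, replicate 2 of CT6, CT10 and CT22, and replicate 1 of CT18), with adjusted p from 0.0517 to 0.0777. It was also lost without filter (0.165), with a spread shared by both genotypes (0.179), with a robust prior (0.0773), with a prior without trend (0.0513) and with time point as a factor (0.0514), and without all libraries of CT2, CT6, CT10 or CT14 (0.0625 to 0.113). In these settings the WT count was 2 or 3. In ΔRRE, *Fkbp5* had an adjusted p of 0.0139 and *Tsc22d3* of 0.0485. The call for *Tsc22d3* was lost without each of 10 of the 12 ΔRRE libraries (all but CT2 replicate 2 and CT22 replicate 2), with adjusted p from 0.0585 to 0.105. With the replicate block it was 0.0564, and it was also lost with no filter (0.180), a prior without trend (0.0686), a robust prior (0.0527), time point as a factor (0.0649), and without CT6, CT10, CT14 or CT18 (0.106 to 0.183). The call for *Fkbp5* in ΔRRE was lost with no filter (0.0841), without CT10 (0.0597), without CT14 (0.156), and without the libraries high in acute-phase genes (0.174) or blood cell markers (0.10), where that for *Tsc22d3* was lost too (0.159 and 0.119). No single library ended the call for *Fkbp5*.

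With all 24 libraries in 1 model, 5 of 9 genes had waves past the threshold (18.7% of all genes tested): *Tsc22d3* (adjusted p = 7.34e-05, limma), *Fkbp5* (8.16e-05), *Tat* (0.0124), *Dusp1* (0.0231) and *Mt1* (0.0369). The last call was lost in 12 of 24 fits that left out 1 library, in which the adjusted p ran from 0.0516 to 0.0944. In WT these were both libraries of CT2 and of CT14 and replicate 2 of CT10 and CT22, and in ΔRRE both of CT10 and of CT18 and replicate 2 of CT2 and CT22. It was also lost with no filter (0.0963), a robust prior (0.0593) and time point as a factor (0.0503), and without CT2, CT10, CT14 or CT18 (0.0768 to 0.277). *Dusp1* was lost without ΔRRE CT6 replicate 1 (0.0508), with no filter (0.0629) and without CT2 (0.0530), CT6 (0.112), CT10 (0.0634) or CT22 (0.0525). *Tat* was lost with time point as a factor (0.0800), without CT14 (0.0815) and without the 2 libraries high in blood cell markers (0.0559), where *Mt1* was lost too (0.0760). The joint and WT calls of *Fkbp5* and *Tsc22d3* were lost in none of the settings tried. When the 3 libraries with high acute-phase sums were left out, *Fkbp5* and *Tsc22d3* kept the joint call. *Tat* (0.0815), *Dusp1* (0.0530) and *Mt1* (0.0694) lost it, and no member was called in ΔRRE alone. This left ΔRRE without CT10 and with replicate 2 alone at CT14, so missing times and acute-phase level cannot be told apart. Without all libraries of CT10, or of CT14, no member was called in ΔRRE alone either.

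*Fkbp5*, *Tsc22d3*, *Tat*, *Dusp1* and *Mt2* had their highest WT mean at CT14, as did *Zbtb16* and *Mt1*, and *Sgk1* at CT22. In ΔRRE, *Fkbp5*, *Tsc22d3*, *Tat* and *Dusp1* were again highest at CT14, and *Mt1* and *Mt2* at CT10. The fitted amplitude of *Mt1* was 1.80 (log2) in WT and 2.45 in ΔRRE, with fitted peaks at CT11.0 and CT10.1. No member passed the test of a difference in wave (0.00889% of all genes), and 1 of 9, *Tat*, had an unadjusted p under 0.05 (2.84% of all genes).

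The comparison of genotypes at single time points showed most at CT10. Both ΔRRE libraries were above both WT libraries for 7 of 9 genes, *Fkbp5*, *Tsc22d3*, *Sgk1*, *Tat*, *Dusp1*, *Mt1* and *Mt2*, whereas 17.4% of all genes tested were. No member passed at an adjusted p under 0.05 (0.0178% of all genes), and 4 of 9 had an unadjusted p under 0.05 (6.16% of all genes), all of them higher in ΔRRE (3.52%). *Tat* had a mean of 840 FPKM in ΔRRE and 303 in WT, a difference of 1.47 ± 0.41 (log2, SE; 2.77-fold; unadjusted p = 0.00242, adjusted p = 0.452, limma). *Fkbp5* had means of 15.2 and 7.38 FPKM, a difference of 1.04 ± 0.33 (2.06-fold; unadjusted p = 0.00589, adjusted p = 0.480, limma).

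At the same time point, *Tsc22d3* differed by 0.81 ± 0.31 (log2, SE; adjusted p = 0.628, limma), *Mt1* by 3.48 ± 1.41 (adjusted p = 0.682) and *Mt2* by 4.24 ± 2.29 (adjusted p = 0.835). In FPKM, *Mt1* averaged 1156 in ΔRRE and 109 in WT, and *Mt2* 409 and 16.1. The libraries of *Dusp1* (0.47 ± 0.38) and *Sgk1* (0.29 ± 0.52) did not overlap either. The 95% intervals of *Mt2* (-0.61 to 9.09), *Dusp1* and *Sgk1* include 0. *Nr3c1* (-0.08 ± 0.18) and *Zbtb16* (0.19 ± 0.76) overlapped. With 2 libraries against 2, an exact permutation test cannot go below 0.333, so the adjusted p rests on the spread pooled over the 12 groups. Leaving out each library in turn gave 1.36 to 1.58 (log2) for *Tat*, 0.93 to 1.15 for *Fkbp5*, 0.46 to 1.17 for *Tsc22d3*, 2.83 to 4.13 for *Mt1* and 2.99 to 5.49 for *Mt2*. For *Dusp1* it gave 0.24 to 0.70 and for *Sgk1* 0.17 to 0.41. Without the libraries high in acute-phase genes no ΔRRE value is left at this time point.

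At the other time points the counts of members with both ΔRRE libraries above both WT were 1 at CT2 (18.6% of all genes), 1 at CT6 (16.2%), 2 at CT14 (17.4%), 1 at CT18 (24.5%) and 0 at CT22 (21.7%). Both ΔRRE libraries were below both WT for 0 members at CT2 (10.9%) and for 2 at each of CT6 (11.8%), CT14 (10.9%), CT18 (6.72%) and CT22 (15.4%). No member had an unadjusted p under 0.05 at any of these 5 time points, where the shares of all genes were 2.57%, 3.28%, 4.63%, 3.61% and 4.66%. None passed when adjusted (limma), against 0.00889%, 0%, 0.0267%, 0.00889% and 0% of all genes. At CT2 *Fkbp5* was higher in both ΔRRE libraries than in both WT libraries, by 0.69 ± 0.33 (log2, SE; unadjusted p = 0.0510, adjusted p = 0.9998, limma). At CT14 it was lower in both ΔRRE libraries than in both WT libraries, by -0.33 ± 0.33 (log2, SE), and at CT22 by -0.52 ± 0.33. Across the 6 time points, the interaction of time point and genotype passed for 0 of 9 members (0.0356% of all genes). *Fkbp5* was the only member with an unadjusted p under 0.05 (0.0169, adjusted p = 0.9999, limma), a level that 3.31% of all genes reached.

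**Figure D3:**
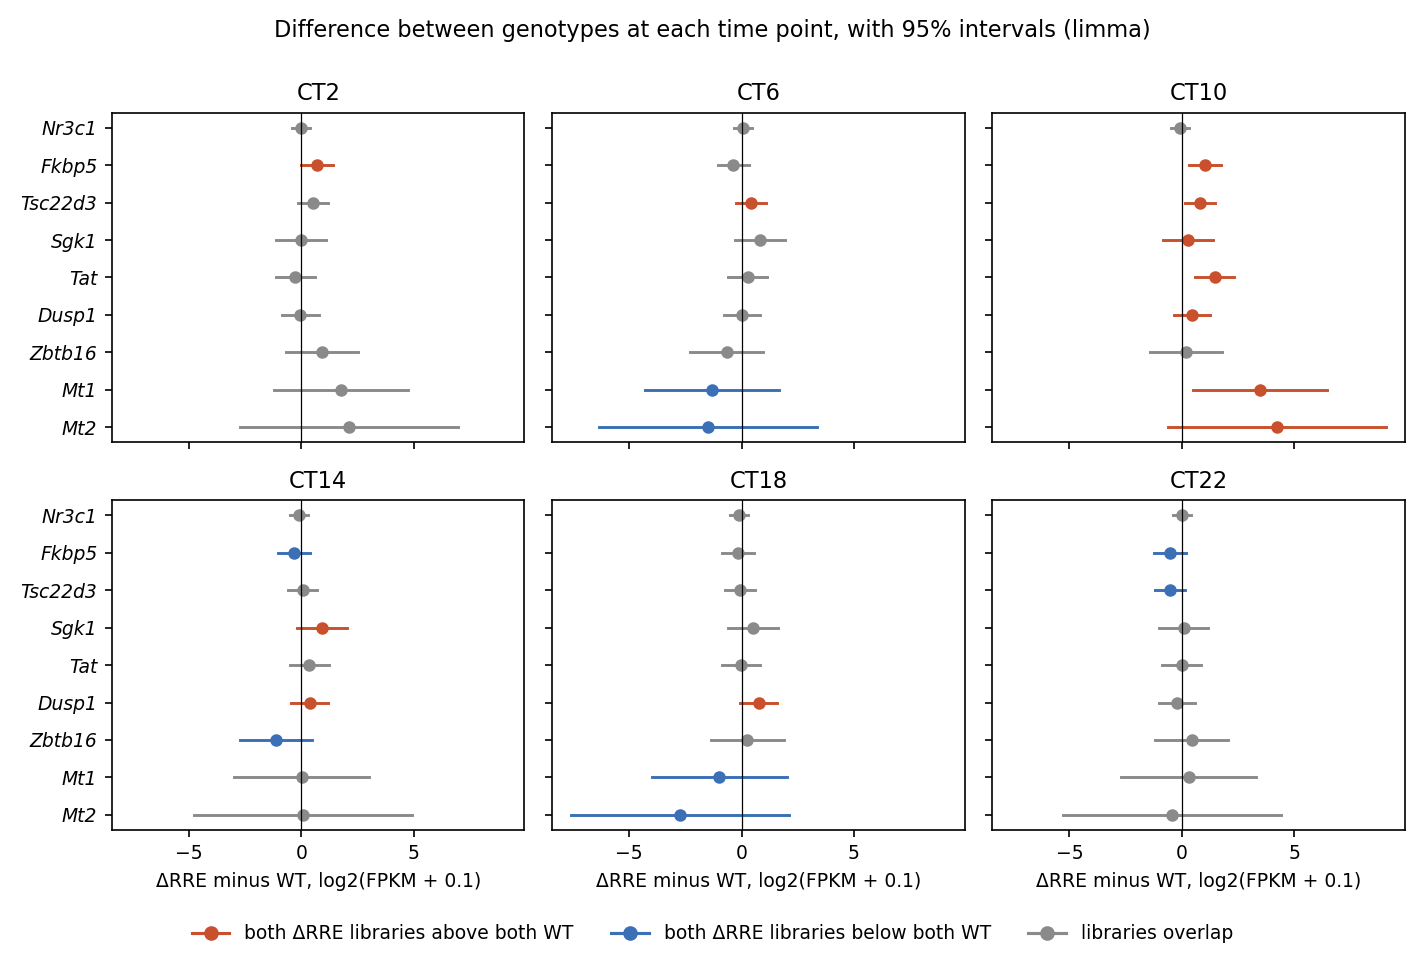
Difference between ΔRRE and WT in log2(FPKM + 0.1) for the 9 genes at each of the 6 time points, as points with 95% intervals from limma. Orange marks both ΔRRE libraries above both WT, blue both below, grey overlapping libraries; orange appears for 7 genes at CT10 and for at most 2 at any other time point.

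Averaged over time points, 0 of 9 members differed between genotypes at an adjusted p under 0.05 (limma; 0% of all genes), and 1 of 9, *Sgk1*, did at an unadjusted p under 0.05 (8.91% of all genes). The differences ran from -0.04 (*Nr3c1*) to 0.55 (*Mt1*, 95% interval -0.74 to 1.84), with a median of 0.23 (log2), beside 0.04 over all genes tested. Leaving out 1 library gave 0.25 to 0.90 for *Mt1*. Without CT10, the differences of *Fkbp5*, *Mt1* and *Mt2* were -0.14, -0.04 and -0.50. Without the libraries high in acute-phase genes they were -0.17, -0.44 and -1.03, and that of *Tat* was -0.007.

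The members differed widely in how far replicates lay apart. The SD within pairs was 0.18 (log2) for *Nr3c1*, at percentile 25.5 of all genes tested, 0.35 for *Tsc22d3*, 0.36 for *Fkbp5*, 0.42 for *Dusp1* and 0.46 for *Tat*. It was 0.59 for *Sgk1*, 0.87 for *Zbtb16*, 1.63 for *Mt1* and 2.64 for *Mt2*, the last pair at percentiles 99.6 and 99.9. The median gene had 0.25. The median gap between replicates was 1.13-fold for *Nr3c1* and 6.04-fold for *Mt2*, whose largest gap, in ΔRRE at CT14, was 111-fold. With 1 FPKM added in place of 0.1, *Mt1* and *Mt2* remained at percentiles 99.9 and 99.99.

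The metallothioneins deviated together. The replicate with more *Mt1* was the one with more *Mt2* in 12 of 12 pairs, and the 12 pair differences had a Pearson r of 0.932 and a Spearman rho of 0.951 (permutation p = 2e-05 for each, the smallest that 100000 resamples can give, two-sided; adjusted over 3 relations 6e-05). Without the 2 pairs farthest from the median, r was 0.936 over 10 pairs. In ΔRRE, replicate 1 had more of both transcripts in 6 of 6 pairs, and in WT in 4 of 6; what a replicate number stands for is not given in the labels. For *Fkbp5* with *Tsc22d3* r was -0.410 (permutation p = 0.184, adjusted 0.276; rho -0.406, p = 0.194) and -0.673 without 2 pairs, and the replicate higher in *Fkbp5* was the higher in *Tsc22d3* in 3 of 12 pairs. Leaving out 1 library moved the r of *Fkbp5* with *Tsc22d3* between -0.561 and -0.156. For *Fkbp5* with *Mt2* r was 0.146 (permutation p = 0.666; rho 0.196, p = 0.547) and 0.0386 without 2 pairs.

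**Figure D4:**
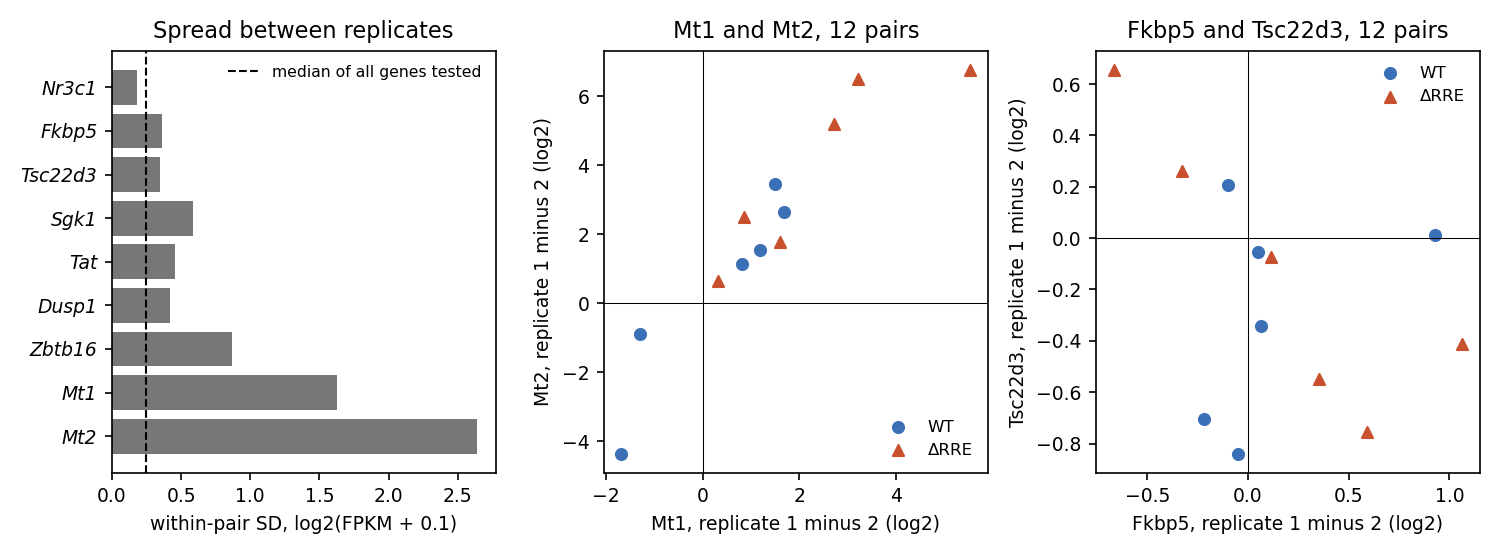
Left, SD within the 12 replicate pairs in log2(FPKM + 0.1) for each gene, with the median of all genes tested as a dashed line. Middle and right, replicate 1 minus replicate 2 (log2) of Mt1 against Mt2 and of Fkbp5 against Tsc22d3, 1 point per pair; for Mt1 and Mt2 both differences have the same sign in all 12 pairs.

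The 3 motifs were sought in 14 windows of 7 members, since *Sgk1* and *Tsc22d3* have several. *Sgk1* holds the glucocorticoid palindrome in 1 of its windows, and the E-box CACGTG, the element bound by CLOCK and BMAL1, occurs in windows of *Fkbp5*, *Dusp1* and *Sgk1*, and in 7.17% of all windows. Letters of the metal element also occur once in 1 window of *Sgk1*, at 11, and once in *Dusp1*, at -6. The windows of *Tat* and *Tsc22d3* held none of the 3 motifs, and those of *Mt2*, *Dusp1* and *Fkbp5* held no glucocorticoid palindrome. Sequence outside the windows was not searched, nor were *Nr3c1* and *Zbtb16*. The stretches are shown in the orientation of each gene, with the matches in capitals:
Sgk1 glucocorticoid element at -188, chr10:21993694-21993722: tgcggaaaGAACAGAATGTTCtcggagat
Fkbp5 E-box at -169, chr17:28486305-28486326: gggccagaCACGTGggcagcgg
Dusp1 E-box at -126, chr17:26508585-26508606: cgcccggtCACGTGtctgccat

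Other genes with a similar course over the 24 libraries are given as a description, since libraries share time and genotype. Nearest to *Fkbp5* were *St3gal5* (Pearson r = 0.935), *Chd9* (0.903) and *Nampt* (0.902), the last the rate-limiting enzyme of NAD salvage. Nearest to *Mt1* were *Mt2* (0.948), *Gm45774* (0.947) and *Fbxo31* (0.908), and to *Mt2*, after *Mt1*, *Gm45774* (0.927) and *Gm33543* (0.832). *Tat* was nearest to *Sik1* (0.839), *Hspb8* (0.826) and *Gm44421* (0.807), and *Dusp1* to *Hexim1* (0.851), *Skil* (0.849) and *Ppp1r3b* (0.833). For *Tsc22d3* they were *Trp53inp2* (0.882), *Tedc2* (0.851) and *Gm16573* (0.840). *Sgk1* was nearest to the immunoglobulin genes *Iglv1* (0.748) and *Ighg2b* (0.685) and to *Usp53* (0.680). *Nr3c1* was nearest to *Clcn4* (0.760), *Dhrs1* (0.744) and *Eif4g3* (0.744), and *Zbtb16* to *Uck2* (0.663), *Nucks1* (0.658) and *Gm4737* (0.657).

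Further glucocorticoid targets were examined as a list of 23, of which 22 were tested. Joint waves passed for 8 of 22 (18.7% of all genes), among them the clock gene *Per1*, *Lpin1*, which makes a phosphatidate phosphatase, the cell cycle inhibitor *Cdkn1a*, and *Pdk4*, which restrains pyruvate oxidation. Their fitted WT peaks were at CT13.1, CT11.8, CT22.1 and CT23.4. At CT10, 14 of 22 had both ΔRRE libraries above both WT (17.4% of all genes), with a list median of 0.58 (log2) beside 0.00 over all genes. At an adjusted p none of the 22 passed at CT10, and 6 were higher and 1 lower at an unadjusted p under 0.05 (6.16% of all genes in either direction).

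Glucose and amino acid enzymes were among those 6. *Pck1*, which commits carbon to glucose synthesis, was at 701 and 691 FPKM in WT and 1860 and 1600 in ΔRRE at CT10 (1.31 ± 0.48, log2 and SE). *G6pc*, which releases glucose, was at 27.8 and 33.2 in WT and 48.3 and 134 in ΔRRE (1.399 ± 0.424), and *Sds*, serine dehydratase, at 90.2 and 181 in WT and 508 and 339 in ΔRRE (1.70 ± 0.55). *Cebpb*, a liver transcription factor, was at 79.1 and 113 in WT and 152 and 165 in ΔRRE (0.74 ± 0.21, adjusted p = 0.452, limma). Over all time points, 9 of the 22 were higher and 0 lower in ΔRRE at an unadjusted p under 0.05 and none passed when adjusted, with 7.16% and 1.75% of all genes higher and lower at that level. The list summed to 3941 and 3545 FPKM in ΔRRE CT10 replicates 1 and 2, and to 3220 FPKM in ΔRRE CT14 replicate 1. These libraries also had high acute-phase sums, and the other 21 ranged from 1085 to 2452 FPKM for this list. Their part in the count over all time points was not tested.

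At CT10, 18 of 20 acute-phase genes tested had both ΔRRE libraries above both WT (17.4% of all genes). At an unadjusted p under 0.05, 12 of 20 were higher (3.52% of all genes), and 0 when adjusted (limma), with a list median of 0.87 (log2). *Lcn2*, an iron-binding acute-phase protein, was at 3.35 and 10.6 FPKM in WT and 79.4 and 87.1 in ΔRRE, and *Fgb*, fibrinogen beta, at 1000.2 and 1090.0 in WT and 2046 and 1807 in ΔRRE. Blood cell markers did not separate at CT10 (0 of 6, beside 17.4% of all genes), but their list median was 1.25 (log2). Their most abundant gene, *Hbb-bs*, was at 247 and 527 FPKM in WT and 1698 and 457 in ΔRRE. The part of blood cell transcripts and of the acute-phase response in the members' CT10 values was not tested.

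Genes of hormone supply and receptor folding were also examined. Of 5 tested genes of glucocorticoid handling, 1 was above in both ΔRRE libraries at CT10, and of 15 receptor chaperones and co-regulators 0 were above and 3 below. Of all genes, 17.4% were above and 15.4% below, so 1 of 5 and 3 of 15 are near the background. Joint waves, which 18.7% of all genes had, passed for 2 of the 5, *Serpina6*, the binding globulin of corticosterone (adjusted p = 0.00575, limma), and *H6pd* (0.0422), which feeds the regenerating enzyme, but the enzyme *Hsd11b1* itself had an adjusted p of 0.646. Among the chaperones and co-regulators 8 of 15 passed, against the same 18.7%, led by *Cry1* (7.85e-07), *Fkbp4* (0.00337), *Hsp90aa1* (0.00770) and *Hsp90ab1* (0.00987). The fitted WT peaks of *Fkbp4* and *Hsp90aa1* were at CT19.8 and CT19.0.

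Genes of metal transport and binding, listed for zinc and copper, were set beside the metallothioneins. Which metal each of them carries in these livers was not tested. Joint waves passed for 4 of 11 tested (18.7% of all genes), the transporters *Slc39a8* (2.27e-05, limma adjusted p), *Slc30a10* (3.51e-05) and *Slc30a1* (0.0129) and ceruloplasmin, *Cp* (0.0299). The metal sensor *Mtf1* did not pass (0.561). At CT10, 2 of 11 had both ΔRRE libraries above both WT and 1 below (17.4% and 15.4% of all genes). *Cp*, also an acute-phase protein, was at 289.9 and 249 FPKM in WT and 376 and 429 in ΔRRE, and the zinc importer *Slc39a14* at 41.1 and 47.6 in WT and 62.5 and 69.96 in ΔRRE (0.58 ± 0.31, log2 and SE). The gene below was *Slc39a4*, another zinc importer, at 19.9 and 16.8 in WT and 9.57 and 13.4 in ΔRRE (-0.68 ± 0.30). Of the 7 immediate-early genes tested, 3 had joint waves, as did all 7 clock genes tested (18.7% of all genes). At CT10, 3 of the 7 immediate-early genes were above in both ΔRRE libraries (17.4% of all genes).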

How the data were processed

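The authors deposited 1 table of FPKM per gene for each library, without pooling replicates. The submitters' processing notes name Trimmomatic 0.39, HISAT2 2.1.0, StringTie 1.3.5 and the mm10 build, with no order or settings. A table for the whole series was not used here. The FPKM were analysed as deposited. No pair of libraries shared more than 0.0463% of its values above 0, so all were counted as separate.

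Groups were taken from the sample labels. On log2(FPKM + 0.1), 11244 genes averaging 1 FPKM or more were fitted with limma 3.58.1 (R 4.3.3, trended prior), with Benjamini-Hochberg adjustment over all of them. Models were 24 h cosine and sine waves per genotype, time point plus genotype, and 12 group means. The study's rhythm criteria (p under 0.3, ratio of means over 1.5, SD at most 1.5 times the range) were used with the wave p, since its own program was not run here. Relations used permutation tests with 100000 resamples in Python with SciPy. The models were tested on simulated data. Positions are from GENCODE M21 and promoter windows from RefSeq, both GRCm38.

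The members, the gene lists and the tests were chosen with earlier results of these data known. The genes named were the 9 members, list members past an adjusted p of 0.05 in the joint wave or level test (up to 4 per list in order of p), and the 3 genes nearest to each member by r. *Hsd11b1*, *Mtf1*, *Pck1*, *G6pc*, *Sds*, *Cebpb*, *Lcn2*, *Fgb*, *Slc39a14*, *Slc39a4*, *S100a9* and the CT10 values of *Cp* were chosen after their values were seen, and *Alb*, *Hpx* and *Hbb-bs* as the most abundant genes of their lists. Alternatives were other constants, filters, scaling, variance priors, a replicate block, other wave tests and limits, and leaving out each library or time point. Leaving out the libraries with the highest acute-phase or blood sums was added after seeing the data.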

Additional observations from a re-analysis of the deposited data

How the results depend on the processing

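Results were compared with their values under 45 other settings, 2336 comparisons in all. Of these, 2174 kept direction and side of the limit or, for counts, stayed within 1.5-fold of the main count. Such a count was 2 members rhythmic in WT with no filter, in place of 3. Of the rest, 103 lost a call or fell further in count, 12 gained and 47 turned in direction. For relations, leaving out 1 library left out its pair, and that fit was entered for both libraries. The cause of the changes was not tested. The number of members rhythmic in ΔRRE at an adjusted p (2) was 0 with no filter, without CT10, without CT14 and with the libraries high in acute-phase genes or in blood cell markers left out, 1 with a prior without trend, a robust prior, the replicate block, time point as a factor, without CT6 and without CT18, and 4 at an adjusted p under 0.1. Leaving out 1 library gave 1 to 3. The joint count (5) was 3 with no filter, with time point as a factor, without CT2, CT10 or CT14 and without the blood-rich libraries. It was 2 without the acute-phase-rich libraries, 4 with a robust prior, without CT6 and without CT18, and 4 to 6 without 1 library. By the study's criteria, the ΔRRE count (7) was 5 without CT10, and 6 without CT6 or with a mean of 5 FPKM. The WT count (8) by these criteria was 7 without CT2 or CT14, with a mean of 5 FPKM and with a ratio of means over 2. The labels do not say whether replicate numbers pair the samples. The correlations of deviations ran from -0.138 to 0.305 over 66 pairs of groups, with a median of 0.0669, and 20 were over 0.1. The level differences of *Zbtb16*, *Fkbp5*, *Mt2*, *Mt1* and *Tat* turned in direction (log2). Their main values were 0.00218, 0.0571, 0.288, 0.546 and 0.298. For *Zbtb16* they were -0.0344 with a constant of 1 FPKM, -0.0382 with median of ratios, -0.179, -0.0362, -0.0499 and -0.0857 without CT2, CT10, CT18 and CT22, and -0.0289 and -0.0381 without the acute-phase-rich and blood-rich libraries. For *Fkbp5* they were -0.0697 and -0.139 without CT2 and CT10, and -0.168 and -0.0242 without those 2 sets of libraries. *Mt2* gave -0.0770, -0.503, -1.03 and -0.524 in the same order. *Mt1* gave -0.0405 without CT10, -0.44 without the acute-phase-rich libraries and -0.00325 without the blood-rich ones, and *Tat* -0.00698 without the acute-phase-rich ones. At CT10, without the blood-rich libraries, *Nr3c1* was at 0.10 and *Zbtb16* at -0.10. The r of *Fkbp5* with *Mt2* was -0.0163 without CT2 and -0.00500 without CT14. Without 1 library each, the level differences ran from -0.0428 to 0.137 for *Fkbp5*, -0.13 to 0.71 for *Mt2* and -0.15 to 0.21 for *Zbtb16*, the CT10 differences from -0.26 to 0.10 for *Nr3c1* and -0.10 to 0.49 for *Zbtb16*, and this r from -0.0298 to 0.468. Requiring a mean of 5 FPKM gave no value for *Zbtb16*. Counting depth is unknown, so errors are those between libraries alone.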

Other observations

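Among the acute-phase genes, joint waves passed for 5 of 20 (18.7% of all genes tested). *Crp* had an adjusted p of 0.000171 (limma), *Steap4* of 0.0213, *Apcs* of 0.0233 and *Fga* of 0.0376. The 3 of 7 immediate-early genes with waves were *Egr1* (0.000521), *Zfp36*, which makes an mRNA decay factor (0.00168), and *Junb* (0.0230), with fitted WT peaks between CT4.58 and CT6.92.

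Of the markers of cell types that liver tissue holds, joint waves passed for 2 of 8 of hepatocytes (*Apoa1* and *Hnf4a*), 0 of 8 of Kupffer cells, 1 of 7 of endothelial cells (*Cdh5*), 1 of 5 of stellate cells (*Lrat*), 1 of 3 of cholangiocytes (*Sox9*) and 0 of 6 of blood cells, beside 18.7% of all genes. The only tested marker of pancreas did not pass. For 5 of 6 blood cell markers, the 4 globin genes and *S100a9* of neutrophils, the mean over time points was higher in ΔRRE at an unadjusted p under 0.05, with differences of 0.67 to 1.23 (log2), where 7.16% of all genes were higher and 1.75% lower, and none passed when adjusted (limma). The blood cell markers summed to 4326 FPKM in ΔRRE CT10 replicate 1 and 4464 FPKM in ΔRRE CT14 replicate 1, against 467 to 2063 FPKM in the others. The part of those libraries in the blood cell differences was not tested. Of the acute-phase genes, 12 of 20 were higher at an unadjusted p under 0.05, against the same 7.16%, and 0 when adjusted. These genes summed to 24001, 19171 and 26314 FPKM in ΔRRE CT10 replicates 1 and 2 and ΔRRE CT14 replicate 1. The other 21 libraries ranged from 7959 to 16333 FPKM, and the part of the former in the acute-phase count was not tested.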
